A study of Mus musculus with 2 samples.

Results

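The nuclear-encoded subunits of the mitochondrial respiratory chain and of ATP synthase were read in CD4+ T cells on a pair of Affymetrix arrays. Members are all probe sets whose platform annotation gives a single gene symbol that begins with Nduf, Sdh, Uqcr or Atp5, or with Cox followed by 4, 5, 6, 7 or 8, or that is Cyc1. The rule took 68 of 13179 probe sets, 54 of 6584 on the chip called subA and 14 of 6595 on subB. They stand for 59 genes: complex I has 22 of them, complex II 4, complex III 8, complex IV 12 and complex V 13.

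The spleen and lymph nodes of female B10.PL mice with a transgenic T-cell receptor for Ac1-11, a peptide of myelin basic protein, were the source of the purified CD4+ cells, and the labels give a time of 48 h. The series sets a stimulus named 4Y against Ac1-11; its labels do not describe 4Y, the age of the mice or the number of mice behind an array. Levels were deposited for 1 array of each chip, and 1 baseline array is known through the change from it, so no value has a replicate, an SD or a p-value. The sample labels call the deposited array Ac1-11, whereas the authors' deposited table names the same levels 4Y (6584 of 6584 and 6595 of 6595 values identical), so which stimulus is which is not settled. The array with deposited levels is called the deposited array below, and every fold is deposited over baseline.

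The chips are described apart, because the folds of 135 named genes detected on both ran in opposite directions for 72 and in the same direction for 40. Their rank correlation was -0.41, a description across genes that share their arrays. All 7 named genes with an increase or decrease call on both chips were called in opposite directions. A probe set counts as detected where it was called present on the deposited array or not marked absent on the baseline array, which held for 3343 probe sets of subA and 1813 of subB. Of 8 CD4 T-cell marker genes, 3 were on subA and 4 on subB, and all 7 were detected. Markers of CD8 T, B, myeloid, natural killer and red cells were detected for 3 of 8 genes on each chip. Cd8a and Cd79a, defining markers of CD8 T cells and B cells, had levels below 0 on both subB arrays. The myeloid genes Cd14 (1720 on the deposited and 2809 on the baseline array) and S100a8 (1762 and 1978) were detected on subB. So was the red-cell gene Hba-a1, at 778 and 1587 by its detected probe set. Of these, S100a8 and Hba-a1 were called absent on the deposited array. On subA the B-cell gene Cd79b was detected, at 471 on the deposited array, where it was called absent, and 772 on the baseline array. The myeloid genes Lyz2 and Cd68 were detected there as well.

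Complex I takes electrons from NADH and complex II takes them from succinate, and both hand them through ubiquinone to complex III. Complex III passes them by way of cytochrome c to complex IV, which reduces oxygen. Complexes I, III and IV pump protons, and complex V, the ATP synthase, uses the returning protons to make ATP. Each complex except II also has subunits encoded by mitochondrial DNA, which the rule does not take. T cells that leave the resting state raise both respiration and glycolysis.

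Most members differed little between the arrays of subA, whereas on subB 2 genes, Ndufa1 of complex I and Cox7a2l of complex IV, were 2.4- to 2.6-fold lower on the deposited array. By a deposited fold of at least 2 with a matching difference call, 0 of 44 detected member probe sets on subA counted as changed, where 4.46% of all detected probe sets did. On subB 2 of 10 counted, both lower, where 6.23% of all detected probe sets counted and 1.99% counted as lower. By the decrease call alone the members numbered 2 of 44 on subA (4.37% of all detected) and 2 of 10 on subB (3.14% of all detected). No member counted as higher, as 1.76% of detected probe sets did on subA and 4.25% on subB. No detected member had an increase call with a fold above 1, which 3.14% of detected probe sets had on subA and 5.74% on subB. The share with a decrease call on subA is close to that of the chip. The subB counts rest on few probe sets.

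Sequences upstream of the 4 genes with a decrease call are shown here, because these are the members that the authors' deposited table calls decreased. They come from RefSeq on GRCm38.p6 and run from 250 bases before to 50 bases after the annotated start, in the direction of the gene. Capitals mark matches on either strand to the motifs of NRF1 (GCATGCGC), of GABP and other ETS factors (CCGGAAG) and of YY1 (AAGATGGCG), factors known as regulators of respiratory genes.
Ndufa1 promoter, chrX:37191189-37191488, strand -: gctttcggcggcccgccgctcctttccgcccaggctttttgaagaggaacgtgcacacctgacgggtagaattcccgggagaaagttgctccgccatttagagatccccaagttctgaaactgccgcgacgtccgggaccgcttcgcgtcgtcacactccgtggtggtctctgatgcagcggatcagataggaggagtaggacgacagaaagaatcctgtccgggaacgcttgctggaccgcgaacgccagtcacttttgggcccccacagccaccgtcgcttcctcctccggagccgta
Cox7a2l promoter, chr17:83514284-83514583, strand -: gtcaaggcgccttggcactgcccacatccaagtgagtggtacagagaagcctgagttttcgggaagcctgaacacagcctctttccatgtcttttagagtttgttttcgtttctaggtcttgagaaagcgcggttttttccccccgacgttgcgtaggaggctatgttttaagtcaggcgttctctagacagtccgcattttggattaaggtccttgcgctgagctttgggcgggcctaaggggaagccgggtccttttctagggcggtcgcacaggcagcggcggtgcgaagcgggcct
Atp5k promoter, chr5:108434350-108434649, strand -: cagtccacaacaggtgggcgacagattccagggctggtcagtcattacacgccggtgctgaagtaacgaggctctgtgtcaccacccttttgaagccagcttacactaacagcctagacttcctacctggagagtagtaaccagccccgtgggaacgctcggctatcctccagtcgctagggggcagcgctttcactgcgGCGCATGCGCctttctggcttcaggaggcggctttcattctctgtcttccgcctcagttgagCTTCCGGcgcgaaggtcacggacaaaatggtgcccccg
Atp5b promoter, chr10:128083057-128083356, strand +: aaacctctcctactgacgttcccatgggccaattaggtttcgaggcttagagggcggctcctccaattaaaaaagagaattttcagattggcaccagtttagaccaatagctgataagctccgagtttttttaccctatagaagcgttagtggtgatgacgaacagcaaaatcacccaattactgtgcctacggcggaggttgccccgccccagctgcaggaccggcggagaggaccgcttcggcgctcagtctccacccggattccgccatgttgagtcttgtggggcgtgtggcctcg

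Among these 4 windows, only that of Atp5k held any of the motifs. Its NRF1 matches, a pair on opposite strands that overlap, span positions -50 to -41 from the start, and its ETS match lies on the opposite strand from 12 to 18 bases after it. Of the 59 member genes 48 had a window in the table, 52 windows in all. The ETS letters were in 14 of these 52 windows (26.9%), against 8.86% of all 32851 windows. The NRF1 letters were in 8 of 52 (15.4%) against 2.71% of all. The YY1 letters were in 3 of 52 (5.77%) against 1.4%. The 8 genes with the NRF1 letters were Atp5k, Atp5l, Cox6a1, Ndufa11, Ndufaf4, Sdhb, Uqcr11 and Uqcrc1. A match here is a string of letters and was not tested as a binding site.

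Complex I, the NADH dehydrogenase, had 17 of 21 probe sets detected on subA, of 16 genes. Folds were above 1 for 10 of these genes, below 1 for 4 and at 1.0 for 2, and the median log2 fold was 0.14 (range -0.58 to 0.58), beside 0 over all detected probe sets of the chip. None had a difference call. Its core subunits were represented by Ndufv2 and Ndufs3. Ndufv2, an iron-sulfur subunit of the NADH-binding end, had a level of 2607 on the deposited array and 3762 on the baseline array, a deposited fold of 1.4 lower; of its 20 probe pairs, 4 were decreased and 1 increased. Ndufs3, in the arm that leads electrons to ubiquinone, had 2663 on the deposited array and 2586 on the baseline array. Ndufv2 was thus the lower of its pair on the deposited array, and the levels of Ndufs3 gave a fold of 1.0.

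Of 13 detected accessory subunits of complex I on subA, which surround the core and are needed for its assembly and stability, 10 had a fold above 1. The largest was that of Ndufv3, a small subunit attached to the NADH-binding part, with 2509 on the deposited array against 1647 on the baseline array (1.5-fold higher, 4 of 20 pairs increased and 0 decreased). Ndufa3 had levels of 11294 on the deposited and 9035 on the baseline array, a fold of 1.3 higher. Ndufv3 and Ndufa3 both lay above their baseline without a difference call. Relative to the running median log2 fold of 0.26 at its level, Ndufa3 stood at only 0.12. Ndufb5, at 6246 on the deposited array against 5031 on the baseline array, Ndufb2 at 3684 against 3098, and Ndufb1 at 3635 against 3116 each had a fold of 1.2 higher. Ndufb7 (7459 on the deposited and 6994 on the baseline array), Ndufb6 (2313 and 2174) and Ndufa5 (1020 and 941) had folds of 1.1 higher. These are membrane-arm and hydrophilic-arm subunits alike, and these 6 had folds of 1.2 or less. Ndufab1, the mitochondrial acyl carrier protein, had 407 on the deposited array and 342 on the baseline array. Ndufa11, a membrane-arm subunit, had 326 on the deposited array, where it was called absent, and 261 on the baseline array.

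Ndufb3, another membrane-arm subunit, went against this group: its level was 5820 on the deposited array and 8818 on the baseline array, a fold of 1.5 lower. Of its 20 pairs 4 were decreased and 0 increased. Relative to the running median log2 fold of 0.14 at its level, Ndufb3 stood at -0.72. Ndufs4, an accessory subunit whose loss causes a lethal encephalopathy in mice, had 3975 on the deposited array against 4205 on the baseline array. Ndufb11 lay at 4626 on the deposited array against 4781 on the baseline array, a fold of 1.0. The assembly factor Ndufaf1 was read by a pair of probe sets with 254 and 612 on the deposited array, against 287 and 671 on the baseline array. Both probe sets of Ndufaf1 were slightly lower, by 1.2-fold and 1.1-fold. The 4 undetected probe sets belonged to Ndufa10 (both of its probe sets), Ndufb10 and the assembly factor Ndufaf4. Levels of Ndufa10 and Ndufb10 were below 0 on both arrays, meaning that mismatch probes were brighter than matching ones, so nothing can be read from their folds.

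On subB, the largest difference of the whole set was that of Ndufa1, a small membrane-anchored subunit that is required for complex I assembly in hamster cells. Ndufa1 had a level of 11240 on the deposited array and 29531 on the baseline array. The deposited array was thus 2.6-fold lower in the authors' deposited table, with a decrease call. Of its 20 probe pairs 18 were scored as decreased and 0 as increased, and only 4 of the 1813 detected probe sets of the chip (0.221%, itself among them) had at least as many decreased pairs. Probe sets of similar level had a running median log2 fold of -0.14, so the value of Ndufa1 relative to them was -1.24 on the log2 scale.

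Ndufv1, the core subunit that binds NADH, was also lower on subB, at 1389 on the deposited array against 2019 on the baseline array. Its fold was 1.6 lower with 7 of 20 pairs decreased and 1 increased, and it had no difference call. At least 7 decreased pairs were seen for 6.07% of detected probe sets on this chip. Ndufa12, an accessory subunit, was called absent on both arrays, at 1905 on the deposited and 1345 on the baseline array, with 5 pairs increased and 7 decreased. Its approximate fold of 2.4 higher is therefore not read as a difference.

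**Figure D1:**
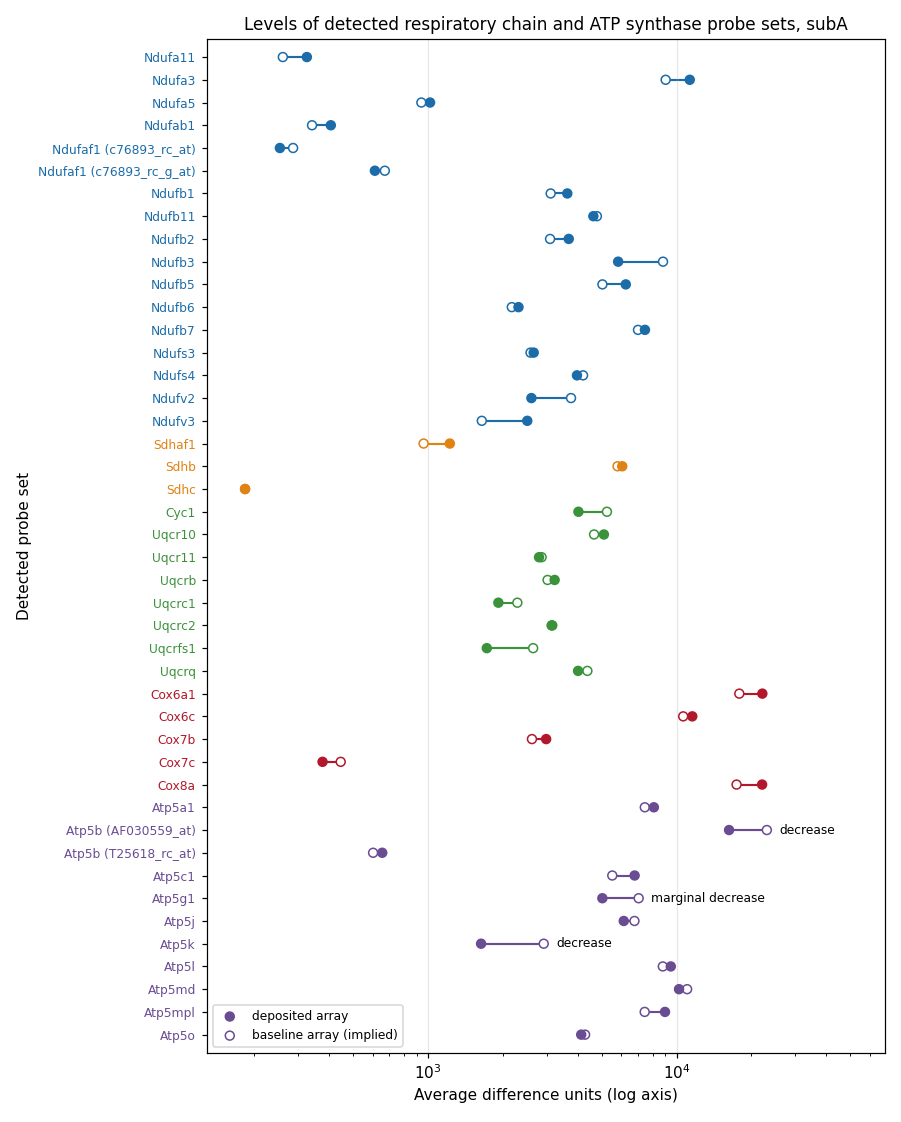
Level of each detected member probe set on the deposited array (filled) and the implied baseline array (open) of subA, in average difference units on a log axis, with complex I in blue, II in orange, III in green, IV in red and V in purple. Most pairs of points nearly touch, and the words mark the 2 decrease calls (Atp5b and Atp5k) and the marginal decrease call of Atp5g1.

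Complex II, the succinate dehydrogenase of the citrate cycle, had 3 genes detected on subA, with a median log2 fold of 0 and no difference call. Sdhb, its iron-sulfur subunit, had 6045 on the deposited array and 5788 on the baseline array. Sdhc, a membrane anchor, had 184 on both arrays, with 2 pairs increased and 2 decreased. Neither differed by as much as a factor of 1.1. Sdhaf1, an assembly factor that helps to insert the iron-sulfur clusters of Sdhb, had 1225 on the deposited array against 961 on the baseline array (1.3-fold higher) by 1 probe set. The other probe set of Sdhaf1 was below 0 on both arrays and was not detected. The remaining anchor, Sdhd, was on subB and was absent on both arrays.

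All 8 probe sets of complex III were detected, all on subA. Folds were above 1 for 2, below 1 for 4 and at 1.0 for 2, with a median log2 fold of -0.07 (range -0.49 to 0.14). The nuclear-encoded subunits that carry redox centres, Uqcrfs1 and Cyc1, both had lower values. Uqcrfs1, the Rieske iron-sulfur protein, had 1725 on the deposited array and 2649 on the baseline array, a fold of 1.4 lower with 6 of 20 pairs decreased and 2 increased. Cyc1, cytochrome c1, which hands electrons to cytochrome c, had 4029 on the deposited array against 5247 on the baseline array, 1.3-fold lower with 1 pair decreased and 2 increased. Neither had a difference call, and the pairs of Cyc1 did not lean the way of its fold.

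The core proteins of complex III, which line its matrix side, differed from each other. Uqcrc1 had 1920 on the deposited array and 2289 on the baseline array, for a deposited fold of 1.3 lower. Uqcrc2 had 3163 on the deposited array and 3143 on the baseline array. Among the small subunits, Uqcr10 stood at 5101 on the deposited and 4657 on the baseline array, and Uqcrb at 3232 and 3028, both 1.1-fold higher. Uqcrq stood at 4016 on the deposited and 4378 on the baseline array (1.1-fold lower), and Uqcr11 at 2798 and 2865. None of these 4 differed by more than 1.1-fold.

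Complex IV, cytochrome c oxidase, holds nuclear-encoded subunits around a catalytic core made in the mitochondrion, and several of them exist as tissue isoforms. The widely expressed isoforms were detected and those known from muscle or testis were not: Cox6a2 and Cox8b, of heart and skeletal muscle, and Cox8c, of testis, were called absent on both arrays. The Cox6a2 probe set on subB was absent as well. Of these, Cox8b had a marginal decrease call on subA at levels of 4 on the deposited and 135 on the baseline array, which are not told from background.

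On subA the 5 detected genes of complex IV had a median log2 fold of 0.14 (range -0.26 to 0.38) and no difference call. Cox6a1, the widely expressed partner of Cox6a2, had 22114 on the deposited array and 17869 on the baseline array, 1.2-fold higher. Cox8a, that of Cox8b, had 22066 on the deposited array against 17423 on the baseline array, 1.3-fold higher with 0 pairs increased and 0 decreased. At their level the running median log2 fold of the chip was itself 0.38, so that relative to probe sets of like level Cox6a1 stood at -0.12 and Cox8a at 0. Cox6c had 11560 on the deposited and 10628 on the baseline array, and Cox7b had 2988 and 2620 by its detected probe set, both 1.1-fold higher. The other Cox7b probe set was absent on both arrays, at 141 on the deposited and 156 on the baseline array (1.1-fold lower). Cox7c had 377 on the deposited and 446 on the baseline array of subA (1.2-fold lower).

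On subB complex IV had 6 detected probe sets of 5 genes, with 5 of the probe sets below 1 and a median log2 fold over genes of -0.14. Cox7a2l, a relative of the Cox7a subunits that helps to join complexes III and IV into supercomplexes, was lower by both of its probe sets. The first had 1763 on the deposited array and 4197 on the baseline array, a fold of 2.4 lower with a decrease call. The second had 2135 on the deposited array and 5359 on the baseline array, a fold of 2.5 lower with a marginal decrease call, which does not count under the rule. Each had 9 of 20 pairs decreased and 0 increased, and 2.92% of detected probe sets had at least as many decreased. Both IDs end in f_at, an Affymetrix mark for probes that can match a family of sequences, so related transcripts may share this signal.

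The other complex IV genes of subB lay near their baseline. Cox4i1, a subunit that binds ATP as a regulator of the enzyme, had 24438 on the deposited and 28233 on the baseline array (1.2-fold lower, with 3 pairs increased and 0 decreased). Cox5a had 8360 on the deposited and 7598 on the baseline array, 1.1-fold higher. Cox7a2, the widely expressed Cox7a isoform and the nearest relative of Cox7a2l in this set, had 7000 on the deposited and 7710 on the baseline array, 1.1-fold lower with 3 of 20 pairs decreased. Cox7c, by another probe set than on subA, had 15453 on the deposited and 16725 on the baseline array, 1.1-fold lower. Cox7a2l thus stood apart from the other 4 genes, whose folds were between 1.2 lower and 1.1 higher. The IDs of these 4, Cox7a2 included, end in f_at as well, so related transcripts may share their signal too.

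**Figure D2:**
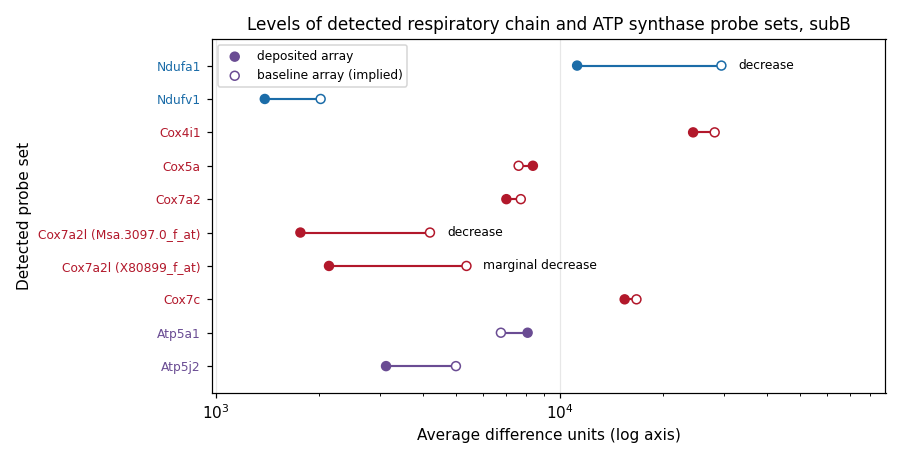
Level of each detected member probe set on the deposited array (filled) and the implied baseline array (open) of subB, in average difference units on a log axis, coloured by complex (I blue, IV red, V purple). Ndufa1 and both probe sets of Cox7a2l have the widest gaps, and 8 of the 10 filled points lie left of their open point.

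Complex V, the ATP synthase, had the only difference calls among detected members of subA. Of its 11 detected probe sets there, 2 had a decrease call, as did 4.37% of all detected probe sets of the chip. A marginal decrease call was given to 1, and to 21 of the 3343 detected probe sets. The 11 probe sets are few, and over all members the share with a decrease call, 2 of 44, was close to that of the chip. Its catalytic head was read by Atp5a1, Atp5b and Atp5c1, the alpha, beta and gamma subunits. Atp5b, which carries the catalytic sites, had 16254 on the deposited array and 23058 on the baseline array, a fold of 1.4 lower with a decrease call. Of its 20 pairs 7 were decreased and 0 increased. Probe sets of similar level had a running median log2 fold of 0.38, and relative to them Atp5b stood at -0.86. At least 7 decreased pairs were found for 3 of 44 detected members of subA and for 7.3% of all its detected probe sets. A second Atp5b probe set had 655 on the deposited and 602 on the baseline array, 1.1-fold higher with no call. The probe sets of Atp5b therefore disagreed in direction.

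Atp5a1, the partner of Atp5b in the head, had 8100 on the deposited array against 7449 on the baseline array (1.1-fold higher). Atp5c1, the central shaft, had 6779 on the deposited array against 5512 on the baseline array (1.2-fold higher). Neither followed the lower value of the called Atp5b probe set. Atp5d, the delta subunit of the shaft, was below 0 on both arrays. Its ID, like that of Ndufb10, carries the letters rc, and 5 of the 7 member probe sets with these letters were detected.

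The membrane part and stalks of complex V held the other calls. Atp5k, the e subunit at the interface of ATP synthase dimers, had 1636 on the deposited array and 2922 on the baseline array, a fold of 1.8 lower with a decrease call. Of its 20 pairs 8 were decreased and 1 increased, and 5.03% of detected probe sets on subA had at least as many decreased. Atp5g1, from a family of genes that encode the same c subunit of the proton-turned ring, had 5029 on the deposited and 7038 on the baseline array. Its fold was 1.4 lower with a marginal decrease call and 7 of 20 pairs decreased and 2 increased, and its ID also ends in f_at.

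Subunits next to Atp5k in the membrane did not share its fold. Atp5l, the g subunit and the neighbour of e, had 9475 on the deposited and 8801 on the baseline array, 1.1-fold higher. Atp5mpl had 8981 on the deposited and 7441 on the baseline array (1.2-fold higher), and Atp5md had 10227 and 11024 (1.1-fold lower), both small proteins bound to the membrane part. In the peripheral stalk, Atp5o stood at 4134 on the deposited and 4285 on the baseline array, and Atp5j at 6130 and 6769. Apart from Atp5k and Atp5g1, the detected membrane and stalk subunits of subA stayed within 1.2-fold. The median log2 fold of complex V on subA was -0.07 (range -0.85 to 0.26, 10 genes).

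Complex V was represented on subB by 2 detected probe sets. Atp5j2, the f subunit of the membrane part, had 3128 on the deposited array and 4994 on the baseline array, a fold of 1.6 lower with 6 of 20 pairs decreased and 1 increased and no difference call. Atp5a1 had 8070 on the deposited and 6748 on the baseline array, 1.2-fold higher with 4 pairs increased and 1 decreased. Atp5pb, the b subunit of the stalk, was absent on both arrays.

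**Figure D3:**
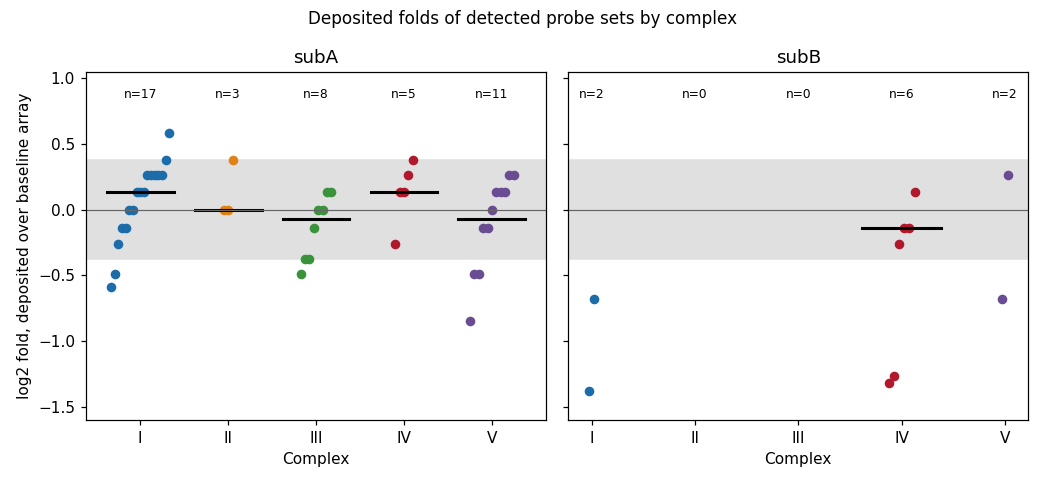
Deposited log2 fold (deposited over baseline array) of each detected member probe set by complex, with n above each column, the black bar at the median over genes where at least 3 genes were detected, and the grey band at the middle 50% of all detected probe sets of the chip. On subA the medians lie between -0.07 and 0.14, and on subB Ndufa1 and the probe sets of Cox7a2l lie below -1.2.

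The medians of the complexes on subA lay between -0.07 and 0.14 on the log2 scale, and differences between them were not tested. For single probe sets, not for medians, the exact folds of paired probe sets for the same gene had an SD of 0.35 for 235 genes of subA and of 0.37 for 44 genes of subB. Over all 42 detected member genes of subA the median log2 fold was 0.07, with the middle 50% between -0.14 and 0.26, against -0.38 to 0.38 for all detected probe sets. Folds of at least 1.5 were seen for 3 of 44 member probe sets on subA, Ndufb3, Ndufv3 and Atp5k, against 30.5% of all detected and 20.2% of those with a mean level of at least 2000. The level matters here, since 35 of the 44 had a mean level of at least 2000. For these 35 the middle 50% lay between -0.14 and 0.20, against -0.26 to 0.38 for all 1059 probe sets of that level.

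On subB the median over 9 detected member genes was -0.26, and 8 of 10 probe sets had a fold below 1, as did 47.8% of all detected probe sets. Folds of at least 1.5, all below 1, were seen for 5 of 10, against 38.2% of all detected in either direction and 28.1% of those with a mean level of at least 2000. Without Ndufa1 and Cox7a2l, a choice made after their values were seen, the median of the other 7 genes was -0.14. Leaving out the lowest genes could only raise this median or keep it. The 939 probe sets with a mean level of at least 2000, with none left out, also had a median of -0.14. The match is not read as a result, since the sets are unlike: the 7 genes include Ndufv1, with a mean level of 1704. T-cell markers also had lower values on this chip: Cd3d, Cd3g, Cd4 and Thy1 were 1.8-, 2.1-, 1.4- and 1.2-fold lower, 3 of them with a decrease call, and their summed level was 89862 on the deposited and 124676 on the baseline array. On subA these markers were mixed: Cd28 was 1.6-fold lower with a decrease call, Cd3e 1.4-fold and Cd5 1.1-fold higher without one, and their sum of 16000 on the deposited and 13512 on the baseline array came mostly from Cd3e. The 8 markers of other cell types on subB summed to 3763 on the deposited and 6966 on the baseline array, and those on subA to 6706 and 5552. These sums include undetected probe sets with levels below 0. On subB the red-cell gene Hba-a1 alone gave 4010 on the deposited and 5045 on the baseline array, mostly by a probe set absent on both. The subA sum was carried by Lyz2, a lysozyme of myeloid cells, at 5294 on the deposited and 2286 on the baseline array. Its deposited fold was 6.2 higher without a call, a larger fold than these levels give. The B-cell markers on subA summed to 839 on the deposited and 2364 on the baseline array. Undetected probe sets entered this sum: Ms4a1 with -643 and 254 and with 1478 and 1466, and Cd22 with -467 and -128. Cd79b, the only detected B-cell gene there, had 471 and 772 without a difference call. The part of these shifts in the members' values was not tested. In bulk RNA, fewer cells of a type cannot be told from less RNA per cell.

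The probe pairs gave a similar picture. On subA the detected members had 72 of 880 pairs scored as increased (8.18%) and 76 as decreased (8.64%), against 12.4% and 12.5% over all detected probe sets. Complex I had 37 pairs increased and 26 decreased of 340 (10.9% and 7.65%), both shares below those of the chip. Complex V had 10 increased and 28 decreased of 220 (4.55% and 12.7%). Its decreased share was thus near that of the chip, and its increased share was lower. Of these 28, 22 came from the 3 probe sets of Atp5b, Atp5g1 and Atp5k with a decrease or marginal decrease call. On subB members had 11 of 200 pairs increased (5.5%) and 55 decreased (27.5%), against 15.0% and 14.1% for the chip. Ndufa1 and Cox7a2l, singled out here for their many decreased pairs, supplied 36 of those 55. The other 7 probe sets had 13.6% of pairs decreased and 7.86% increased.

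**Figure D4:**
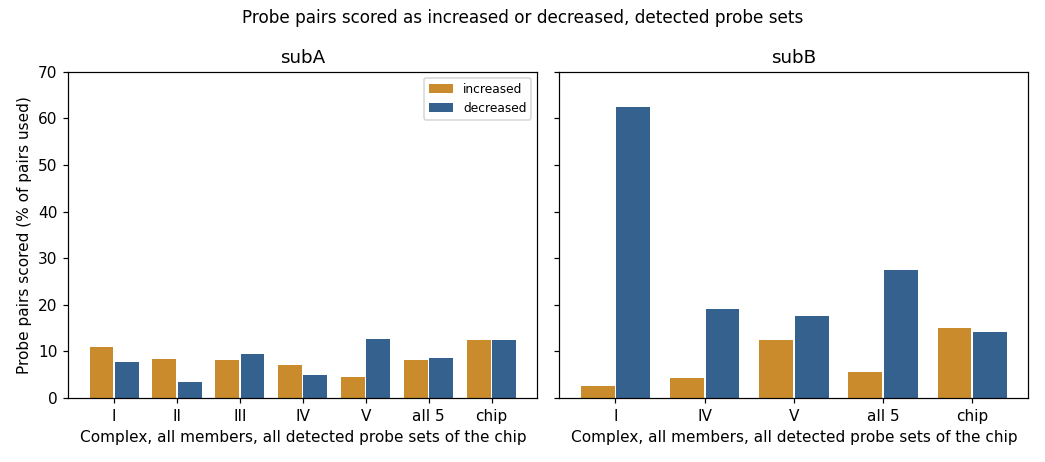
Share of probe pairs scored as increased (ochre) and decreased (blue), as a percentage of pairs used, over the detected probe sets of each complex, of all 5 complexes and of the whole chip. On subA no complex exceeds 12.7% either way, and on subB complex I reaches 62.5% decreased, from Ndufa1 and Ndufv1.

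Genes read more than once give a measure of agreement. Of 59 genes, 9 had 2 probe sets, 6 of them on the same chip and 3 on both chips. The called genes differ in this respect: both Cox7a2l probe sets were lower by nearly the same fold, Atp5b was lower by 1 of 2, and Ndufa1 and Atp5k had 1 probe set each. The Cox7a2l probe sets are both f_at sets of the same chip, with the same pair scores, so they are not taken as independent reads. Of the genes on both chips, Atp5a1 was 1.1-fold higher on subA and 1.2-fold higher on subB, and Cox7c was 1.2-fold and 1.1-fold lower. Both had folds of the same sign on the 2 chips. In size these were 0.14 or 0.26 on the log2 scale, below the SD between paired probe sets (0.35 on subA and 0.37 on subB). Their signs are therefore a weak measure of agreement. The third, Cox6a2, was undetected on both chips. If the sign of subB were turned, Ndufa1 and Cox7a2l would count as higher, and the median of subB would be 0.26.

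**Figure D5:**
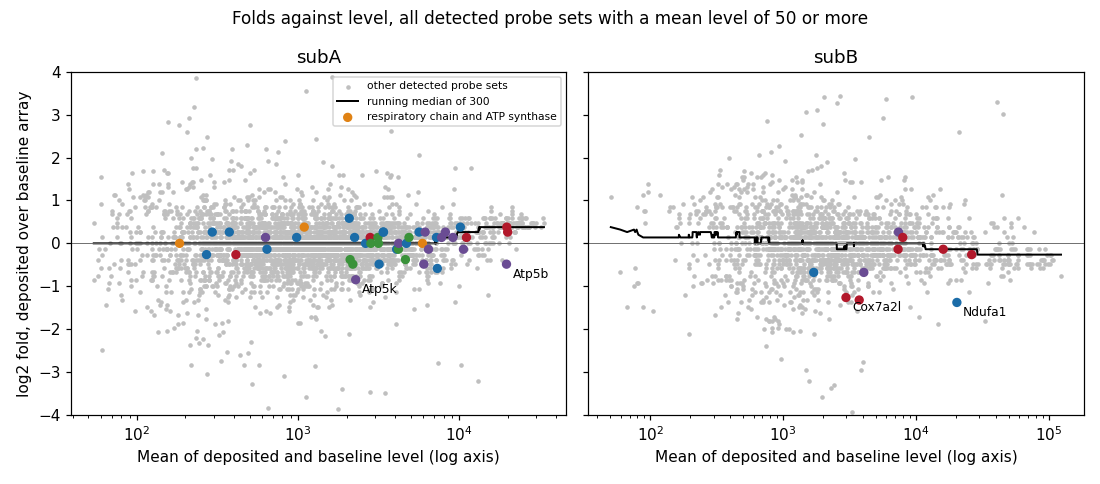
Deposited log2 fold against the mean of deposited and baseline level (log axis) for detected probe sets with a mean level of at least 50; members are coloured by complex as in the level plots, other probe sets are grey, the line is the running median of 300 probe sets, and points beyond 4 on the log2 scale are not drawn. Most members lie close to the line, and the genes with a decrease call are labelled. At the highest and lowest levels the line rests on fewer probe sets.

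Genes that work beside the respiratory chain were read from lists of mitochondrial carriers, import factors, regulators, ribosomal proteins and oxidant defences. On subA 51 of 62 listed genes were detected, with folds above 1 for 17 and below 1 for 25, where 45.0% and 42.5% of all detected probe sets of the chip lay above and below 1. Of these genes 1 counted as changed, beside 4.46% of all detected probe sets. On subB 12 of 19 were detected, 7 above and 4 below 1, and 0 counted, beside 6.23% of all detected probe sets. Electron carriers and assembly factors were not lower as a group: all 4 detected on subA, Cox17, Etfb, Sco2 and Surf1, had folds between 1.0 and 1.2 higher.

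Cycs, the cytochrome c that links complexes III and IV, was higher on subB, where Ndufa1 and Cox7a2l were lower. By the probe set with the higher level, Cycs had 11981 on the deposited and 8507 on the baseline array, a fold of 1.4 higher with an increase call and 7 of 20 pairs increased. By the other it had 5383 on the deposited and 3088 on the baseline array, 1.7-fold higher with 10 pairs increased, 1 decreased and no call. Both probe sets of Cycs thus ran against the lower members of the same chip. The ID of the called Cycs probe set ends in f_at, so related transcripts may share its signal.

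Channels and carriers of the mitochondrial membranes leaned lower on subA, with folds below 1 for 5 of 6 detected genes and a median log2 fold of -0.26. Vdac2, a pore of the outer membrane, had 1601 on the deposited and 2751 on the baseline array, a fold of 1.7 lower with a decrease call and 10 of 20 pairs decreased. Vdac1 stood at 4431 on the deposited and 5900 on the baseline array (1.3-fold lower) without a call. Vdac3 stood at 562 on the deposited and 1073 on the baseline array (1.9-fold lower), also without a call. Its pairs, 1 increased and 1 decreased, did not lean the way of its fold. The 3 pores therefore had lower values on subA, 1 of them called. On subB a probe set of Vdac1 was absent on both arrays, at 623 on the deposited and -776 on the baseline array. It had 7 pairs increased and 1 decreased. Slc25a5, an exchanger of ADP and ATP, was 1.1-fold lower by the probe set with the higher level on subA and 1.3-fold higher on subB.

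Import factors and chaperones had folds below 1 for 7 of 10 detected genes on subA, with a median log2 fold of -0.32 and no difference call. Timm44, which ties the import motor to the inner membrane, had 712 on the deposited and 1352 on the baseline array of subA (1.9-fold lower), and 5049 and 4343 on subB (1.2-fold higher). Tomm70a, an import receptor, was 1.7-fold lower. Of 4 detected oxidant defence genes on subA, 3 had folds above 1 and none a difference call, among them Sod1, a superoxide dismutase, at 7158 on the deposited and 4757 on the baseline array (1.5-fold higher, no call). Among regulators on subA, the mitochondrial DNA packaging factor Tfam was at 1.2-fold higher, Yy1 and Polg were at 1.0, and the GABP subunit genes Gabpa and Gabpb1 were at an approximate 1.7-fold higher and at 1.2-fold lower, all without a difference call. Of 20 detected mitochondrial ribosomal protein genes on subA, 11 had folds below 1. Mrps25 had 419 on the deposited and 1115 on the baseline array, 2.7-fold lower with a decrease call, the gene that counted as changed. Mrps34 had an increase call at 1.4-fold higher.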

How the data were processed

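Per the labels, RNA of purified CD4+ T cells was made into biotinylated cRNA and hybridised to the Mu11k chips. The authors deposited intensity values per probe set (average differences of perfect match and mismatch probes, on a linear scale). Per the file headers, their comparison tables add the change against a baseline array, calls, scored probe pairs and a signed fold, deposited as a score in which approximate values are marked. Software and scaling are not given in the sources used here. Depth has no counterpart on arrays, and the number of arrays limits precision.

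The baseline level was computed as level minus change, and an asterisk in the baseline column was taken to mean absent. The deposited fold, rounded to 0.1 by its authors, can differ from the ratio of levels; it was kept unaltered and converted to log2. Control probe sets (55 per chip) were left out. Detection and the threshold of 2 are defined in the text, and marginal calls did not count. Medians use the probe set of highest mean level per gene and need 3 genes. Running medians span 300 detected probe sets, and fewer at the highest and lowest levels, where the window is cut off. The text names members with a call or a fold of at least 2, those of highest level and most extreme fold per complex, and genes read more than once. The members, the 6 pathway lists and 7 marker lists were chosen with earlier results of these data known. Symbols come from the platform annotation, and sequences from RefSeq. No test was possible with 1 array per condition. Alternatives changed fold threshold, calls, detection, centring, level correction, floors of 100 and 500, and probe set choice. The call rule, the log2 conversion and the running median were run on simulated folds with known answers. The simulated calls were set from those folds, so their recovery checks the code only. Detection, implied baselines and the motif search were not simulated. Python 3.11.15, pandas 2.3.3, NumPy 2.4.6 and matplotlib 3.10.9 were used.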

Additional observations from a re-analysis of the deposited data

How the results depend on the processing

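The count of changed members on subA, 0 as reported, was 1 at a fold of at least 1.5 (Atp5k) and 2 with the decrease call alone (Atp5b and Atp5k), all lower. On subB the 2 changed members became 0 at a fold of at least 3 and 3 with no difference call required. Of the medians, that of complex IV on subA changed sign, to -0.12 from 0.14, once the running median over level was subtracted. With the sign of subB turned, an alternative chosen after the data were seen, the median of members on subB was 0.26 and that of complex IV on subB was 0.14, against -0.26 and -0.14 as deposited. Taking every detected probe set moved the subB median to -0.47. Across the other settings, no median moved by more than 0.13 on the log2 scale. Each median of a complex rests on 3 to 16 genes and on folds rounded by their authors. No paired analysis was possible because each condition had 1 array per chip. The signal of undetected members, several of them below 0, gives no bound on their difference.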
